A study of Mus musculus with 12 samples.

Results

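The genes described here are the cytosolic aminoacyl-tRNA synthetases together with enzymes and transporters that supply amino acids, measured in mouse colonic epithelial organoids (colonoids) given hemin. They were chosen by gene symbol from a list of 41 names: 21 names of synthetases, 9 of enzymes of asparagine, serine, glycine, proline, glutamate and alanine synthesis, 5 of folate one-carbon enzymes and 6 of amino acid transporters. Of these, 40 names each occurred among the 54532 genes of the deposited table, and the remaining name, *Mars1*, is a newer symbol of *Mars*, which was present, so the list stands for 40 genes. All 40 were among the 12740 genes tested, those with 3 or more of the 12 libraries at an FPKM (fragments per kilobase of gene, scaled to the library) of 1 or higher. *Pycr1* met this filter only through its vehicle libraries, since its FPKM was under 1 in every library with hemin.

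Aminoacyl-tRNA synthetases join each amino acid to its own tRNA before it enters protein, and several of the cytosolic ones sit together in a multisynthetase complex held by scaffold proteins. Cells make serine from a glycolytic intermediate, split it into glycine and a folate-bound carbon unit in mitochondria or cytosol, and use that unit for nucleotide synthesis, so these enzymes are usually abundant in dividing cells such as those of intestinal crypts. Many synthetase, synthesis and transporter genes carry elements bound by ATF4, a transcription factor made when amino acids are scarce or when other stresses, heme shortage among them, slow translation initiation.

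4 groups of 3 libraries were compared. Colonoids of *Hmox1* fl/fl mice (control) and colonoids labelled *Hmox1* KO with *Vil1* Cre were kept for 24 h with vehicle or with 200 µM of hemin, an oxidised heme carrying chloride. *Hmox1* encodes heme oxygenase 1, the enzyme that degrades heme, and Vil1-Cre is active along the gut epithelium, crypts and colon included, so the deletion is meant for epithelium only, on a C57BL/6 background. All colonoids came from young adult mice and grew in L-WRN conditioned medium, which also supplies amino acids. The labels do not state whether the libraries of a group came from separate animals or cultures, so p-values measure only the spread between these samples, which may be technical. 1 library labelled KO with hemin, replicate 3, carries the genotype *Hmox1* fl/fl /Vil1 Cre in its labels, where the other 5 carry *Hmox1* KO /Vil1 Cre. The KO mice were bred by crossing *Hmox1* fl/fl mice with Vil1-Cre mice, so both wordings can name the same genotype.

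*Hmox1* was measured first, as a check on the labels. It had 7.62, 6.85 and 7.90 FPKM in the control libraries with vehicle, 503, 483 and 382 with hemin, 3.14, 2.11 and 2.31 in the labelled KO libraries with vehicle and 1279, 1392 and 1271 with hemin. The labelled KO libraries were thus the lower under vehicle (-1.27 ± 0.12 SE, adjusted p = 1.2e-05 on the log2 scale) and the higher under hemin (1.53 ± 0.12 SE, adjusted p = 3.3e-06), with no overlap between groups in either case. A lower *Hmox1* level would be looked for under the label, and it was seen under vehicle but not under hemin. Gene-level values cannot show which exons were transcribed, so the level under hemin does not settle whether the label holds. These libraries are therefore called labelled KO throughout, and every direction between genotypes refers to the label. Markers of cell types were read beside the epithelial label. All 9 epithelial markers were tested, with *Krt8* the most abundant at a mean of 3225 FPKM, whereas all 6 leukocyte and all 3 endothelial markers were under 1 FPKM in every library. The epithelial markers themselves moved: with hemin 4 of 9 rose in control, and 7 rose and 2 fell in labelled KO (medians -0.02 and 0.74), and 5 were lower in labelled KO under vehicle (median -0.43). TPM, with totals made equal, had 4 rise in labelled KO and 1 lower there under vehicle, and 1 rather than 2 fell without any single library outside control hemin. Their part in the members' changes was not tested. Of 7 fibroblast and muscle markers, only *Pdgfrb* reached 1 FPKM (mean 0.926), and 1, *Col1a2*, was at 0 in every library.

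Recovered fragments on genes numbered 11648801 in the smallest library and 25101868 in the largest, and the hemin-treated control libraries were the smallest (11648801, 11859124 and 11935604). Some libraries stood apart. The 57-base transcript *Gm23935* held 16.8% of the FPKM sum in control vehicle replicate 1, 29.0% in control hemin replicate 1 and 21.0% in labelled KO hemin replicate 2, against at most 2.81% in the other 9. Control hemin replicate 3 differed from the remaining libraries of its group in several members, including *Asns*, *Slc1a5*, *Slc6a9* and *Slc38a2*. Because the deposited values already equalise the median gene between libraries, the median log2 fold change over all genes was -0.01 for hemin in control and 0.00 for hemin in labelled KO. Rescaled to TPM (values summing to the same total in each library), the medians of all genes became -0.19 and -0.31 for hemin in control and labelled KO, 0.16 and 0.04 for labelled KO against control under vehicle and hemin, and -0.11 for the interaction. All changes below are relative to the median gene. They are differences of log2(FPKM + 1), which for genes near 1 FPKM are smaller than the log2 ratio of the FPKM shown.

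With hemin, more members fell than rose in both genotypes. In control colonoids 22 of 40 members fell and 2 rose at an adjusted p under 0.05, where 26.7% of all genes tested fell and 23.2% rose, and the median log2 fold change of the members was -0.27 beside -0.01 for all genes. In labelled KO colonoids 27 fell and 4 rose, where 30.4% of all genes fell and 29.9% rose, and the members' median was -0.48 beside 0.00. Asking also for an absolute log2 fold change above 1 left 6 members lower and 1 higher in control (background 5.93% and 2.17%), and 7 lower and 2 higher in labelled KO (background 8.07% and 4.87%). The members that fell include *Pycr1*, which the filter admitted by its vehicle values. Without control hemin replicate 3, 4 members rather than 2 rose in control. On the TPM scale 20 members fell and 1 rose in control, where 3146 of the 12740 genes fell and 854 rose. In labelled KO 28 fell and 2 rose on that scale, where 4708 genes fell and 1191 rose. With *Gm23935* left out of the sum 27 fell and 2 rose in control, where 4160 genes fell and 2258 rose. In labelled KO 32 then fell and 3 rose, where 5192 genes fell and 2458 rose. The summed FPKM of the members was 1324 ± 19.7 (SD, n = 3) with vehicle and 1118 ± 31.7 with hemin in control, and 1209.9 ± 21.0 with vehicle and 925 ± 8.47 with hemin in labelled KO. These are bulk libraries, in which fewer cells of a type and less RNA per cell cannot be told apart.

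Between genotypes, lower members again outnumbered higher ones. Under vehicle 15 members were lower and 6 higher in the labelled KO libraries, where 16.8% of all genes were lower and 17.4% higher, and no member passed the log2 limit of 1 (background 3.27% lower and 3.53% higher). The members' median was -0.09 beside 0.02 for all genes, and on the TPM scale it turned to 0.06, still under the 0.16 of all genes on that scale. Under hemin 20 were lower and 6 higher, where 14.7% of all genes were lower and 19.7% higher, with a median of -0.21 beside 0.04. Past the log2 limit of 1, 3 were lower and 0 higher (background 2.91% and 3.1%). The count of 6 higher members became 2 without labelled KO hemin replicate 3, the library whose genotype label is worded differently, and 3 without the 3 libraries high in *Gm23935*. On the TPM scale *Mthfd2*, *Slc38a2* and *Slc6a9* (lower) and *Mthfd1* (higher) still passed between genotypes under vehicle, and *Asns*, *Phgdh*, *Aldh18a1*, *Gpt2*, *Shmt2* and *Slc1a5* (lower) under hemin, and no other member did, although with *Gm23935* left out of the sum 12 were lower and 8 higher under vehicle and 21 and 4 under hemin. Without *Gm23935* in the sum 1794 of the 12740 genes were lower and 2669 higher under vehicle, and 2187 and 2107 under hemin. With it these were 797 and 1472, and 958 and 1151. The vehicle and hemin comparisons share no libraries, whereas each shares groups with the hemin comparisons above.

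The interaction asked whether the log2 change with hemin in labelled KO differed from that in control. It was negative for 6 members (*Wars*, *Phgdh*, *Aldh18a1*, *Gpt2*, *Shmt2* and *Slc1a5*) and positive for 4 (*Got1*, *Slc1a4*, *Slc38a2* and *Slc6a9*), where 10.5% of all genes tested were negative and 13.3% positive. Past the log2 limit of 1 stood 3 negative members and 1 positive (background 2.56% and 2.57%). *Wars*, *Phgdh*, *Aldh18a1*, *Slc1a5* and *Slc6a9* passed on the TPM scale too, and with *Gm23935* left out of that sum 13 members were negative and 2 positive. On the TPM scale 597 of the 12740 genes were negative and 312 positive, and without *Gm23935* in the sum 1837 and 1164. Without the 3 libraries high in *Gm23935*, 1 member was positive.

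**Figure D1:**
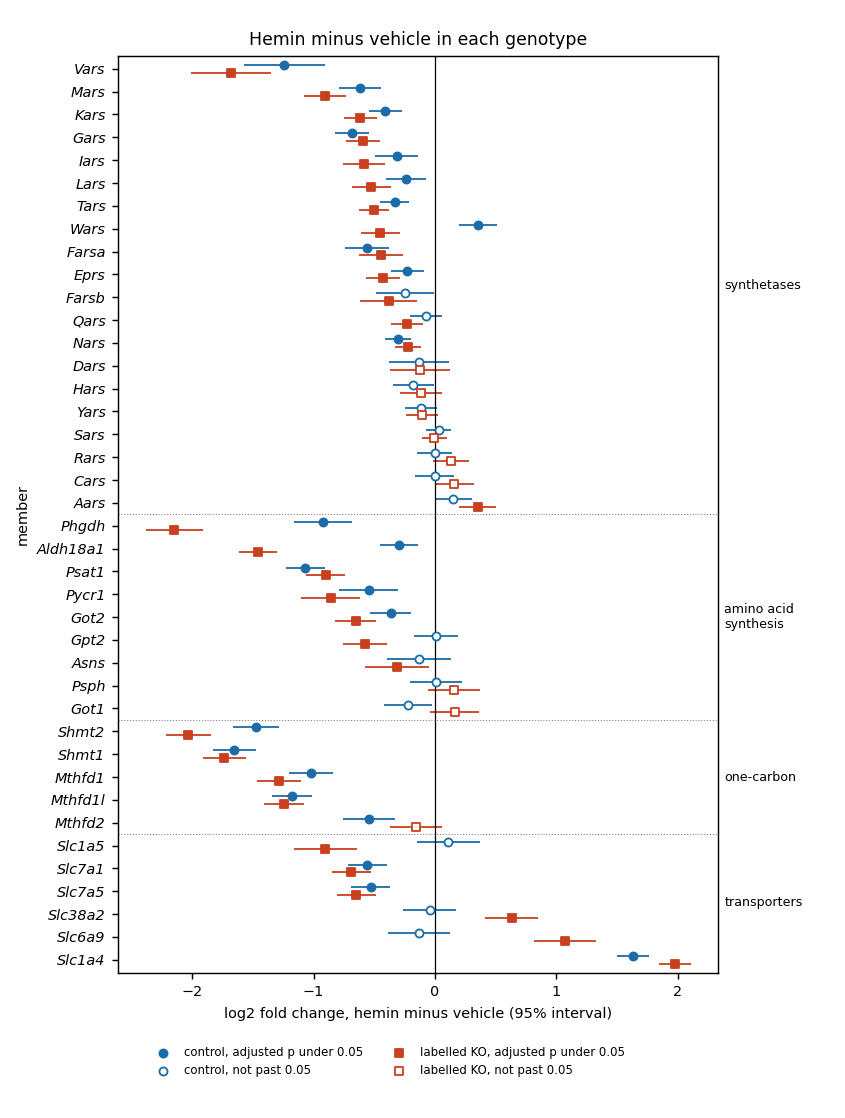
Log2 fold change of FPKM with hemin against vehicle for each of the 40 members (rows, grouped by role), in control (blue circles) and labelled KO colonoids (red squares). Bars are 95% intervals from the fit with 3 libraries per group, filled symbols passed an adjusted p of 0.05, and most filled symbols lie left of 0 except Slc1a4, Wars in control, and Aars, Slc6a9 and Slc38a2 in labelled KO.

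Among the synthetases, 10 of 20 fell and 1 rose with hemin in control, and 13 fell and 1 rose in labelled KO, with medians of -0.23 and -0.40. As shares 50% fell and 5% rose in control, beside 26.7% and 23.2% of all genes. In labelled KO 65% fell and 5% rose, beside 30.4% and 29.9%. No synthetase rose in either on the TPM scale with limma (0 and 0 at an unadjusted p under 0.05), whereas in control 2 rose without control vehicle replicate 3 or control hemin replicate 3, and in labelled KO 3 rose without the latter and 2 without labelled KO hemin replicate 2. Most changes were modest, and 1 synthetase, *Vars*, which charges valine tRNA, passed the log2 limit of 1. It had 41.9, 53.0 and 55.0 FPKM in the control libraries with vehicle, 19.7, 26.2 and 16.5 with hemin, 64.3, 67.5 and 66.9 in the labelled KO libraries with vehicle and 20.2, 18.1 and 21.8 with hemin. In both genotypes every library with hemin was under every library with vehicle, at -1.24 ± 0.15 (SE, adjusted p = 5.1e-05) in control and -1.68 ± 0.15 (SE, adjusted p = 3.1e-06) in labelled KO. Labelled KO and control did not differ past the threshold under vehicle (0.41, 95% interval 0.08 to 0.74, adjusted p = 0.057).

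*Mars*, the methionyl-tRNA synthetase, had 32.9, 35.3 and 39.9 FPKM in the control libraries with vehicle, 21.5, 24.5 and 23.3 with hemin, 31.6, 33.2 and 33.8 in the labelled KO libraries with vehicle and 17.3, 16.2 and 17.8 with hemin. Hemin and vehicle libraries did not overlap in either genotype, and *Mars* fell by 0.62 on the log2 scale in control (adjusted p = 6.8e-05) and by 0.90 in labelled KO (adjusted p = 2.3e-06). *Kars*, for lysine, had 33.8, 33.2 and 33.1 FPKM in the control libraries with vehicle, 24.7, 27.1 and 23.0 with hemin, 40.5, 41.5 and 42.6 in the labelled KO libraries with vehicle and 27.4, 26.3 and 26.5 with hemin. It fell with hemin in both (-0.41 ± 0.06 SE, adjusted p = 0.00023 and -0.62 ± 0.06 SE, adjusted p = 7e-06), and under vehicle it was higher in labelled KO (0.31 ± 0.06 SE, adjusted p = 0.0024). That difference under vehicle did not pass on the TPM scale.

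*Gars*, for glycine, and *Nars*, for asparagine, were the most abundant synthetases under vehicle in control and were lower in labelled KO under either treatment. *Gars* had 118, 111 and 109 FPKM in the control libraries with vehicle, 67.6, 67.7 and 73.9 with hemin, 82.1, 83.1 and 80.3 in the labelled KO libraries with vehicle and 55.0, 49.9 and 56.8 with hemin. Its 4 groups did not overlap, with hemin lowering it in control (-0.68 ± 0.06 SE, adjusted p = 8.2e-06) and in labelled KO (-0.60 ± 0.06 SE, adjusted p = 1.3e-05), and labelled KO at -0.45 under vehicle and -0.37 under hemin. *Nars* had 151, 142 and 141 FPKM in the control libraries with vehicle, 117, 119 and 115 with hemin, 97.9, 96.4 and 95.2 in the labelled KO libraries with vehicle and 83.1, 81.8 and 83.2 with hemin, the highest level of any member in every group but labelled KO with hemin, where *Slc1a4* was higher. For *Nars* the difference between genotypes was -0.58 ± 0.05 (SE, adjusted p = 3.9e-06) under vehicle, and that with hemin was -0.31 ± 0.05 (SE, adjusted p = 0.00036) in control. Which of these is the larger was not tested. On the TPM scale no difference of *Gars* or *Nars* between genotypes passed.

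*Rars*, for arginine, differed by genotype but not past the threshold by treatment. It had 52.9, 46.6 and 48.3 FPKM in the control libraries with vehicle, 48.4, 46.4 and 52.8 with hemin, 33.6, 33.9 and 31.8 in the labelled KO libraries with vehicle and 35.6, 37.4 and 36.1 with hemin. Each labelled KO library was under each control library, at -0.56 ± 0.07 (SE, adjusted p = 6.1e-05) under vehicle and -0.43 ± 0.07 (SE, adjusted p = 0.00048) under hemin, while hemin against vehicle gave 0.00 (95% interval -0.15 to 0.14, adjusted p = 0.99) in control and 0.13 (95% interval -0.01 to 0.28, adjusted p = 0.11) in labelled KO. *Wars*, for tryptophan, had 65.0, 67.8 and 70.5 FPKM in the control libraries with vehicle, 85.6, 96.5 and 79.0 with hemin, 86.1, 90.8 and 91.8 in the labelled KO libraries with vehicle and 66.7, 64.0 and 65.1 with hemin. It rose in control (0.35 ± 0.07 SE, adjusted p = 0.0019) and fell in labelled KO (-0.45 ± 0.07 SE, adjusted p = 0.00026), an interaction of -0.80 ± 0.10 (SE, adjusted p = 0.00023). Under vehicle the labelled KO libraries were the higher (0.40), and under hemin the lower (-0.41). Its interaction and its fall passed on the TPM scale, and its rise in control and the differences between genotypes did not. The differences of *Rars* between genotypes did not pass on that scale either. No other synthetase passed for the interaction, although 6 of 20 were negative at an unadjusted p under 0.05, and 7 passed, all negative, on the TPM scale with *Gm23935* left out of the sum. On that last scale 1837 of the 12740 genes were negative and 1164 positive.

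The other synthetases can be given by their log2 fold changes. With hemin in control and labelled KO, *Farsa* and *Farsb*, the subunits of the phenylalanine enzyme, stood at -0.56 and -0.45, and at -0.24 and -0.38, of which the control value of *Farsb* did not pass (adjusted p = 0.08). *Tars* (threonine) fell by 0.33 in control, and in labelled KO the values were -0.50 for *Tars*, -0.58 for *Iars* (isoleucine), -0.52 for *Lars* (leucine) and -0.43 for *Eprs*, which charges both glutamate and proline tRNA. In control the same enzymes fell, *Iars* by 0.32, *Lars* by 0.24 and *Eprs* by 0.23, that of *Lars* not without control vehicle replicate 3 or control hemin replicate 1 (adjusted p = 0.059 to 0.063). The passes of *Lars* and *Eprs* in control also ended on the TPM scale (adjusted p = 0.12 and 0.07) and with only the groups compared, and those of *Iars*, *Lars* and *Eprs* without the libraries high in *Gm23935* (adjusted p = 0.058, 0.11 and 0.11). *Qars* (glutamine) passed in labelled KO (-0.23) and not in control (-0.07), with an interaction of -0.15 (95% interval -0.34 to 0.03, adjusted p = 0.23). *Aars* (alanine) was the member of this class that rose in labelled KO (0.35 ± 0.07 SE, adjusted p = 0.0012), from 18.5, 20.1 and 19.4 to 25.5, 24.1 and 25.2 FPKM, and it did not pass on either TPM scale. *Cars* (cysteine), *Dars* (aspartate), *Hars* (histidine), *Sars* (serine) and *Yars* (tyrosine) passed in neither genotype, with values from -0.18 to 0.16.

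Between genotypes under vehicle, 7 synthetases were lower in labelled KO (*Aars*, *Cars*, *Gars*, *Nars*, *Rars*, *Sars* and *Tars*) and 3 higher (*Hars*, *Kars* and *Wars*), or 5 higher without control hemin replicate 3. As shares 35% were lower and 15% higher, beside 16.8% and 17.4% of all genes. The median of the class was -0.01, or 0.14 on the TPM scale, on which no synthetase passed with limma (3 higher and 2 lower at an unadjusted p under 0.05). Under hemin 10 were lower, adding *Iars*, *Lars*, *Mars*, *Qars* and *Wars* to *Gars*, *Nars*, *Rars*, *Sars* and *Tars*, and *Hars* was higher (0.29 ± 0.08 SE, adjusted p = 0.014). These shares were 50% lower and 5% higher, beside 14.7% and 19.7% of all genes. The passes of *Aars*, *Cars*, *Hars* and *Tars* under vehicle and of *Hars*, *Iars* and *Qars* under hemin each ended without some single library, named at the end, and on the TPM scale no synthetase passed under hemin either (0 higher and 4 lower at an unadjusted p under 0.05). A grouping added after the values were seen sets the 8 synthetases of the multisynthetase complex (*Dars*, *Eprs*, *Iars*, *Kars*, *Lars*, *Mars*, *Qars* and *Rars*) beside the 12 others. With hemin in labelled KO, 6 of the 8 fell and none rose by limma (0 at an unadjusted p under 0.05, median -0.48), and 7 of the 12 fell and 1 rose (median -0.30). In control 5 of 8 and 5 of 12 fell, with medians of -0.23 and -0.21. The former count became 3 on the TPM scale and 2 without the libraries high in *Gm23935*, and the latter 8 on TPM once *Gm23935* had been dropped from its sum. In labelled KO 1 of the 8 rose without control hemin replicate 3. The difference between the groupings was not tested. Of all genes 30.4% fell with hemin in labelled KO and 26.7% in control.

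Of the 9 synthesis enzymes, 5 fell with hemin in control and 7 in labelled KO, none rose in either by limma (0 and 0 at an unadjusted p under 0.05, 0 and 0 by limma-voom), and the medians were -0.30 and -0.65. The falls were 55.6% and 77.8% of the class, beside 26.7% and 30.4% of all genes, of which 23.2% and 29.9% rose. *Phgdh*, the first enzyme of serine synthesis (chr3:98313170-98339990, minus strand, in the deposited mm10 coordinates used throughout), showed the largest fall of any member in labelled KO. It had 50.8, 51.9 and 58.3 FPKM in the control libraries with vehicle, 28.4, 32.2 and 23.6 with hemin, 41.0, 48.3 and 45.0 in the labelled KO libraries with vehicle and 9.67, 8.68 and 9.64 with hemin. No hemin library overlapped a vehicle library of its genotype, and every labelled KO library with hemin was under every control library with hemin. *Phgdh* changed by -0.92 ± 0.11 (SE, adjusted p = 4.1e-05) in control and -2.15 ± 0.11 (SE, adjusted p = 4.4e-08) in labelled KO, and the difference between these, the interaction, was -1.23 ± 0.15 (SE, adjusted p = 0.0002). Under hemin labelled KO stood at -1.48 ± 0.11 (SE, adjusted p = 1.5e-06) relative to control, and under vehicle the difference did not pass (-0.26, 95% interval -0.49 to -0.02, adjusted p = 0.092).

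*Aldh18a1*, which makes the glutamate semialdehyde from which proline and ornithine arise (chr19:40550257-40588463, minus strand), had 24.9, 22.6 and 25.8 FPKM in the control libraries with vehicle, 19.6, 21.3 and 18.2 with hemin, 23.0, 25.6 and 24.0 in the labelled KO libraries with vehicle and 8.34, 8.11 and 8.06 with hemin. The labelled KO libraries with hemin lay far under the other 9 libraries. *Aldh18a1* fell in control by 0.30 (adjusted p = 0.0054, and 0.06 without the libraries high in *Gm23935*) and in labelled KO by 1.46 (adjusted p = 3.8e-08), with an interaction of -1.16 ± 0.10 (SE, adjusted p = 2.1e-05). *Pycr1*, the mitochondrial enzyme that completes proline synthesis, was the least abundant member in every group, with 1.49, 1.46 and 1.498 FPKM in the control libraries with vehicle, 0.913, 0.623 and 0.587 with hemin, 1.82, 1.62 and 1.68 in the labelled KO libraries with vehicle and 0.406, 0.734 and 0.354 with hemin. Hemin against vehicle gave -0.54 ± 0.11 (SE, adjusted p = 0.0018) in control and -0.86 ± 0.11 (SE, adjusted p = 5.1e-05) in labelled KO, where the ratios of mean FPKM were 0.477 and 0.292. A filter passed only by the vehicle libraries favours such a fall, and with no filter the adjusted p were 0.0063 and 0.00025.

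*Psat1*, the enzyme after *Phgdh* in serine synthesis (chr19:15904678-15947337, minus strand), fell in both genotypes. It had 38.3, 36.2 and 36.3 FPKM in the control libraries with vehicle, 15.6, 17.8 and 17.9 with hemin, 26.9, 27.8 and 26.2 in the labelled KO libraries with vehicle and 12.7, 14.2 and 15.1 with hemin. The fall was -1.07 ± 0.07 (SE, adjusted p = 7.8e-07) in control and -0.90 ± 0.07 (SE, adjusted p = 1.4e-06) in labelled KO, and the interaction did not pass (0.17, 95% interval -0.06 to 0.40, adjusted p = 0.28). Labelled KO libraries were lower under vehicle (-0.44 ± 0.07 SE, adjusted p = 0.00068). *Psph*, the last enzyme of the pathway, did not follow, with 4.40, 4.04 and 5.14 FPKM in the control libraries with vehicle, 4.03, 4.51 and 5.14 with hemin, 3.04, 3.31 and 3.06 in the labelled KO libraries with vehicle and 3.82, 3.78 and 3.24 with hemin. It passed only between genotypes under vehicle, where labelled KO was lower (-0.41 ± 0.10 SE, adjusted p = 0.0064), and hemin against vehicle gave 0.01 (95% interval -0.20 to 0.22, adjusted p = 0.95) in control and 0.15 (95% interval -0.06 to 0.37, adjusted p = 0.19) in labelled KO. Neither the difference of *Psat1* under vehicle nor that of *Psph* passed on the TPM scale. Read in order, the 3 enzymes of the serine route stood at -2.15, -0.90 and 0.15 in labelled KO and at -0.92, -1.07 and 0.01 in control.

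*Asns*, the asparagine synthetase and a much used marker of the amino acid response (chr6:7675169-7693254, minus strand), had 46.1, 38.4 and 40.6 FPKM in the control libraries with vehicle, 35.2, 32.4 and 47.2 with hemin, 29.2, 30.0 and 30.1 in the labelled KO libraries with vehicle and 24.1, 24.8 and 22.6 with hemin. Labelled KO libraries were lower under vehicle (-0.47 ± 0.12 SE, adjusted p = 0.011) and under hemin (-0.64 ± 0.12 SE, adjusted p = 0.0016), without overlap in either case, the former not passing on the TPM scale or without the libraries high in *Gm23935*. With hemin it did not pass in control (-0.14, 95% interval -0.40 to 0.13, adjusted p = 0.37), where replicate 3 was as high as the vehicle libraries, and it passed narrowly in labelled KO (-0.31 ± 0.12 SE, adjusted p = 0.043). That pass ended without control vehicle replicate 3 or any single labelled KO library (adjusted p = 0.056 to 0.12). It ended as well with the replicate block, with no filter and without the libraries high in *Gm23935*. *Gpt2*, the mitochondrial alanine transaminase, had 3.79, 4.04 and 4.16 FPKM in the control libraries with vehicle, 3.77, 3.79 and 4.55 with hemin, 3.13, 3.68 and 3.67 in the labelled KO libraries with vehicle and 1.97, 2.18 and 1.90 with hemin. It fell in labelled KO (-0.57 ± 0.08 SE, adjusted p = 0.00012), and the interaction passed as well (-0.58 ± 0.12 SE, adjusted p = 0.0043), though not on the TPM scale (adjusted p = 0.076). The aspartate transaminases parted: the mitochondrial *Got2* fell in both genotypes (-0.37 and -0.65), while the cytosolic *Got1* passed in neither (-0.22 and 0.16), with a positive interaction close to the threshold (0.39 ± 0.13 SE, adjusted p = 0.0499), which ended without any single one of 9 libraries (all of labelled KO vehicle, replicates 1 and 3 of either hemin group, and control vehicle 2 and 3, adjusted p = 0.0508 to 0.12). That interaction also ended with the replicate block.

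The folate one-carbon enzymes were the class with the largest falls. All 5 fell with hemin in control and 4 of 5 in labelled KO, with medians of -1.18 and -1.28, and 4 passed the log2 limit of 1 in each genotype. Of all genes 26.7% fell in control and 30.4% in labelled KO. Past that limit 5.93% and 8.07% of all genes fell. On the TPM scale all 5 fell in both. *Shmt1* and *Shmt2* are the cytosolic and mitochondrial enzymes that split serine into glycine and a one-carbon unit. *Shmt1* (chr11:60788104-60811718, minus strand) had 18.8, 19.5 and 19.2 FPKM in the control libraries with vehicle, 5.19, 5.92 and 5.14 with hemin, 24.4, 25.6 and 24.6 in the labelled KO libraries with vehicle and 5.85, 7.15 and 7.38 with hemin. *Shmt2* (chr10:127517123-127522444, minus strand) had 41.3, 40.0 and 45.5 FPKM in the control libraries with vehicle, 15.3, 16.1 and 12.5 with hemin, 39.0, 41.1 and 39.5 in the labelled KO libraries with vehicle and 8.76, 9.01 and 9.21 with hemin. Hemin libraries of both genes were all under the vehicle libraries of their genotype, with log2 fold changes for *Shmt1* of -1.65 ± 0.08 (SE, adjusted p = 7.5e-08) in control and -1.74 ± 0.08 (SE, adjusted p = 2.3e-08) in labelled KO.

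*Shmt2* fell more in labelled KO than in control, at -2.03 ± 0.09 (SE, adjusted p = 1.2e-08) against -1.47 ± 0.09 (SE, adjusted p = 2.6e-07), an interaction of -0.56 ± 0.12 (SE, adjusted p = 0.0065) that did not pass on the TPM scale or without the libraries high in *Gm23935* (adjusted p = 0.1 and 0.066). Under vehicle *Shmt2* did not differ past the threshold between genotypes (-0.08, 95% interval -0.27 to 0.11, adjusted p = 0.52), and under hemin labelled KO was lower (-0.64 ± 0.09 SE, adjusted p = 0.00016). *Shmt1* went the other way, being higher in labelled KO under vehicle (0.36 ± 0.08 SE, adjusted p = 0.0049) and under hemin (0.28 ± 0.08 SE, adjusted p = 0.02), where control and labelled KO libraries overlapped. The latter pass ended without control hemin replicate 1 or labelled KO hemin replicates 2 or 3 (adjusted p = 0.064 to 0.088), on both TPM scales, with only the groups compared and without the libraries high in *Gm23935*, and the former ended on the TPM scale.

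*Mthfd1*, the cytosolic trifunctional enzyme that interconverts folate-bound carbon units (chr12:76255298-76319803, plus strand), had 21.9, 25.6 and 26.0 FPKM in the control libraries with vehicle, 11.3, 12.5 and 10.9 with hemin, 37.7, 39.7 and 39.6 in the labelled KO libraries with vehicle and 14.2, 16.3 and 15.8 with hemin. Its mitochondrial relative *Mthfd1l*, which releases formate, had 13.2, 13.01 and 14.4 FPKM in the control libraries with vehicle, 4.92, 5.99 and 5.35 with hemin, 17.6, 17.8 and 18.2 in the labelled KO libraries with vehicle and 6.47, 6.98 and 7.45 with hemin. Both fell with hemin, *Mthfd1* with -1.02 in control and -1.28 in labelled KO (adjusted p = 2.3e-06 and 2.3e-07), and *Mthfd1l* with -1.18 and -1.25 (adjusted p = 4.5e-07 and 1.6e-07). Both were higher in labelled KO under vehicle (0.65 ± 0.08 SE, adjusted p = 8.6e-05 and 0.38 ± 0.07 SE, adjusted p = 0.0023) and under hemin (0.39 and 0.31). The passes under hemin ended on the TPM scale, and that of *Mthfd1l* also with only the groups compared and without the libraries high in *Gm23935*, and its pass under vehicle ended on the TPM scale.

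*Mthfd2*, the mitochondrial dehydrogenase of the same route (chr6:83305691-83325908, minus strand), stood apart from these with 15.3, 11.8 and 13.2 FPKM in the control libraries with vehicle, 8.75, 7.91 and 10.0 with hemin, 7.12, 7.25 and 7.70 in the labelled KO libraries with vehicle and 6.41, 6.30 and 6.82 with hemin. It was lower in labelled KO than in control under vehicle (-0.78 ± 0.10 SE, adjusted p = 8.7e-05), fell with hemin in control (-0.55 ± 0.10 SE, adjusted p = 0.00079) and did not pass in labelled KO (-0.15, 95% interval -0.37 to 0.06, adjusted p = 0.19), and the interaction did not pass (0.39, 95% interval 0.09 to 0.69, adjusted p = 0.063). The 3 mitochondrial enzymes *Shmt2*, *Mthfd1l* and *Mthfd2* differed by genotype under vehicle at -0.08, 0.38 and -0.78, and the cytosolic *Shmt1* and *Mthfd1* at 0.36 and 0.65.

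Proliferation markers were read beside this class. All 12 fell with hemin in control (median -1.51) and in labelled KO (median -1.34), and in labelled KO 10 were higher under vehicle (median 0.51) and 12 under hemin (median 0.79). Their summed FPKM was 406, 375 and 379 in control with vehicle, 126, 139 and 147 with hemin, 544, 544 and 540.4 in labelled KO with vehicle and 227, 259 and 242 with hemin. *Pcna*, a clamp of DNA replication, was the most abundant of them, and none was at 0 in any library. The summed FPKM of the 5 one-carbon enzymes ran 110.4, 109.9 and 118, 45.4, 48.4 and 43.9, 126, 131 and 129.7 and 41.7, 45.7 and 46.7 in the same order. Between genotypes 3 of the 5 enzymes were higher and 1 lower in labelled KO under vehicle (median 0.36), and under hemin 3 were higher (*Shmt1*, *Mthfd1* and *Mthfd1l*) and 2 lower (*Shmt2* and *Mthfd2*, median 0.28). Those counts became 1 higher and 1 lower under vehicle and 0 and 1 under hemin on the TPM scale with limma (1 higher under hemin at an unadjusted p under 0.05). Limma-voom, which kept the deposited scaling, gave 3 higher under hemin, and 1 was higher there without the libraries high in *Gm23935*. On the deposited scale 17.4% of all genes were higher and 16.8% lower under vehicle, and 19.7% and 14.7% under hemin. The part of proliferation in the one-carbon result was not tested.

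The 6 transporters were divided. With hemin in labelled KO, 3 rose (*Slc1a4*, *Slc6a9* and *Slc38a2*) and 3 fell (*Slc1a5*, *Slc7a1* and *Slc7a5*), and in control 1 rose (2 without control hemin replicate 3) and 2 fell. In labelled KO 50% rose and 50% fell, beside 29.9% and 30.4% of all genes. In control 16.7% rose and 33.3% fell, which is near the 23.2% and 26.7% of all genes. *Slc1a4*, a neutral amino acid exchanger that carries serine, alanine and cysteine (chr11:20302180-20332713, minus strand), had 31.4, 32.6 and 30.9 FPKM in the control libraries with vehicle, 94.3, 104 and 101 with hemin, 26.4, 28.7 and 25.6 in the labelled KO libraries with vehicle and 112, 107 and 108 with hemin. Hemin and vehicle libraries were far apart in both genotypes, and *Slc1a4* rose in control (1.63 ± 0.06 SE, adjusted p = 9.4e-09) and more in labelled KO (1.98 ± 0.06 SE, adjusted p = 9.8e-10), with an interaction of 0.35 ± 0.08 (SE, adjusted p = 0.012) that did not pass on either TPM scale or without the libraries high in *Gm23935*. With hemin in labelled KO it had the highest level of any member.

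Its relative *Slc1a5*, the main glutamine exchanger of many epithelia (chr7:16781340-16798274, plus strand), had 50.5, 54.5 and 56.2 FPKM in the control libraries with vehicle, 61.2, 68.3 and 46.6 with hemin, 48.8, 53.7 and 50.4 in the labelled KO libraries with vehicle and 25.1, 27.9 and 27.3 with hemin. The labelled KO libraries with hemin were under all others. *Slc1a5* fell in labelled KO (-0.90 ± 0.12 SE, adjusted p = 5.5e-05), gave 0.11 (95% interval -0.15 to 0.37, adjusted p = 0.46) in control, and had an interaction of -1.01 ± 0.17 (SE, adjusted p = 0.0012). Under hemin labelled KO was lower than control (-1.09 ± 0.12 SE, adjusted p = 3.1e-05).

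*Slc6a9*, the glycine transporter (chr4:117834506-117875198, plus strand), had 5.33, 6.31 and 6.09 FPKM in the control libraries with vehicle, 6.09, 5.97 and 4.08 with hemin, 2.84, 3.14 and 3.12 in the labelled KO libraries with vehicle and 7.36, 7.34 and 7.70 with hemin. In labelled KO it was low with vehicle and high with hemin, a rise of 1.07 ± 0.12 (SE, adjusted p = 1.4e-05), whereas in control the groups overlapped (-0.13, 95% interval -0.38 to 0.13, adjusted p = 0.39), and the interaction was 1.20 ± 0.16 (SE, adjusted p = 0.0004). Relative to control, labelled KO was lower under vehicle (-0.77 ± 0.12 SE, adjusted p = 0.00035) and higher under hemin (0.42 ± 0.12 SE, adjusted p = 0.015), the latter not without labelled KO hemin replicate 3 (adjusted p = 0.0528), on the TPM scale or with only the groups compared. *Slc38a2*, a sodium-coupled carrier of small neutral amino acids (chr15:96687392-96699730, minus strand), had 56.9, 58.8 and 57.2 FPKM in the control libraries with vehicle, 52.2, 49.2 and 67.8 with hemin, 30.1, 30.7 and 30.8 in the labelled KO libraries with vehicle and 46.3, 50.0 and 47.6 with hemin. It too was lower in labelled KO under vehicle (-0.89 ± 0.10 SE, adjusted p = 3.4e-05) and rose there with hemin (0.63 ± 0.10 SE, adjusted p = 0.00021), with an interaction of 0.68 ± 0.14 (SE, adjusted p = 0.0049), and under hemin the genotypes overlapped (-0.22, 95% interval -0.43 to 0.00, adjusted p = 0.12). On the TPM scale neither the rise of *Slc38a2* nor its interaction passed, and without the libraries high in *Gm23935* the interaction did not (adjusted p = 0.0546).

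The cationic amino acid transporter *Slc7a1* and the large neutral one *Slc7a5* fell in both genotypes. *Slc7a1* had 13.8, 13.6 and 13.9 FPKM in the control libraries with vehicle, 9.91, 8.97 and 8.23 with hemin, 11.1, 10.9 and 11.4 in the labelled KO libraries with vehicle and 6.20, 7.19 and 6.23 with hemin, with changes of -0.56 ± 0.07 (SE, adjusted p = 9e-05) in control and -0.69 ± 0.07 (SE, adjusted p = 1.2e-05) in labelled KO. *Slc7a5* had 19.9, 23.0 and 24.0 FPKM in the control libraries with vehicle, 15.1, 15.4 and 14.8 with hemin, 20.01, 21.5 and 20.7 in the labelled KO libraries with vehicle and 13.1, 12.2 and 13.5 with hemin, with -0.53 ± 0.07 (SE, adjusted p = 0.00012) and -0.65 ± 0.07 (SE, adjusted p = 1.8e-05). Neither interaction passed (-0.13, 95% interval -0.36 to 0.10, adjusted p = 0.42 for *Slc7a1* and -0.12, 95% interval -0.34 to 0.11, adjusted p = 0.47 for *Slc7a5*), and *Slc7a1* was lower in labelled KO under vehicle (-0.28) and hemin (-0.41). These differences of *Slc7a1* did not pass on the TPM scale.

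**Figure D2:**
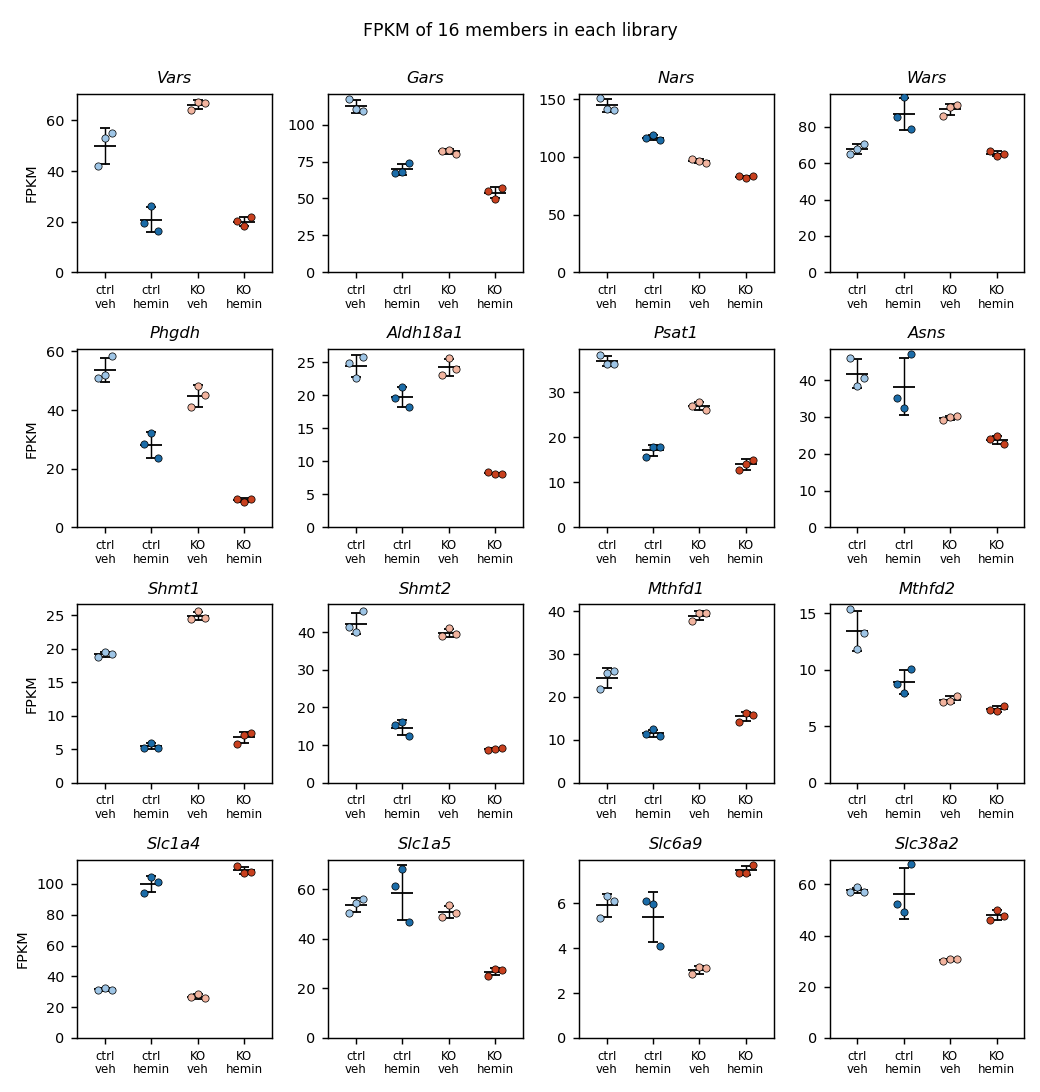
FPKM of 16 members, 4 from each role, in each of the 12 libraries (points), with the mean and SD of the 3 libraries of a group (horizontal mark and bars). Groups are control (ctrl) and labelled KO (KO) with vehicle (veh) or hemin, and axes start at 0. Labelled KO libraries with hemin are the lowest for Gars, Nars, Phgdh, Aldh18a1, Psat1, Asns, Shmt2, Mthfd2 and Slc1a5. They are the highest for Slc1a4 and Slc6a9.

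**Figure D3:**
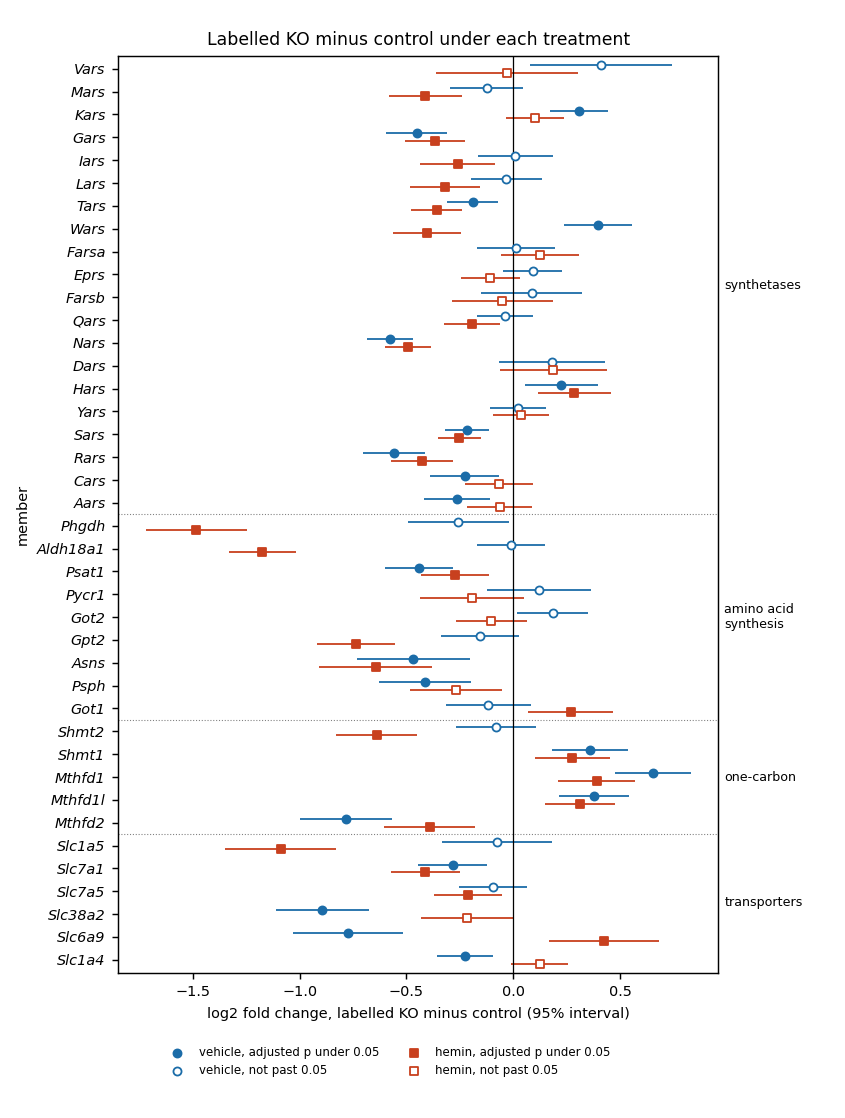
Log2 fold change of FPKM in labelled KO against control for each of the 40 members (rows, grouped by role), under vehicle (blue circles) and under hemin (red squares). Bars are 95% intervals with 3 libraries per group, filled symbols passed an adjusted p of 0.05, and the symbols furthest left are Phgdh, Aldh18a1 and Slc1a5 under hemin.

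Other genes of these pathways were read beside the members. Of 17 mitochondrial synthetases, 9 fell and 1 rose with hemin in control and 11 fell and 1 rose in labelled KO (medians -0.26 and -0.45), beside 26.7% and 23.2% of all genes in control and 30.4% and 29.9% in labelled KO. With TPM 7 fell and 0 rose in control, where 3146 of the 12740 genes fell and 854 rose. In labelled KO 12 fell and 0 rose, where 4708 genes fell and 1191 rose. An unadjusted p under 0.05 gave 0 rises on TPM in both. Leaving out each library in turn gave 1 to 2 rises in control. The largest falls in labelled KO were those of *Sars2* (-1.21 ± 0.15 SE, adjusted p = 4.7e-05), *Aars2* (-1.16 ± 0.17 SE, adjusted p = 0.00012) and *Vars2* (-1.10 ± 0.13 SE, adjusted p = 2.6e-05), which charge mitochondrial serine, alanine and valine tRNA. The interaction passed for 4, all negative (23.5% beside 10.5% of all genes), led by *Vars2* (-0.61), *Ears2* (-0.46) and *Tars2* (-0.41), and on the TPM scale for none with limma (4 negative at an unadjusted p under 0.05), or for 7, all negative, with *Gm23935* left out of that sum. Of the 12740 genes 597 were negative and 312 positive on the TPM scale, and 1837 and 1164 without *Gm23935* in the sum. With each library left out in turn the count of 4 ran from 1 to 7, the highest without control hemin replicate 3, and it was 1 without the libraries high in *Gm23935*. The scaffold proteins of the multisynthetase complex fell too. All 3 fell in control, and in labelled KO *Aimp2* (-0.55) and *Aimp1* (-0.38) fell, whereas *Eef1e1* stood at -0.07, with an interaction of 0.52 ± 0.10 (SE, adjusted p = 0.003) that did not pass on the TPM scale. With TPM 2 of the 3 scaffold genes fell in control and all 3 in labelled KO. With *Gm23935* left out of that sum all 3 fell in both.

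Of 32 other enzymes of amino acid and folate metabolism, 28 were tested. With hemin 11 fell and 4 rose in control, and 11 fell and 7 rose in labelled KO, with medians of -0.17 and -0.10. As shares these were 39.3% and 14.3% in control, beside 26.7% and 23.2% of all genes, and 39.3% and 25.0% in labelled KO, beside 30.4% and 29.9%. With TPM 10 fell and 2 rose in control and 13 fell and 2 rose in labelled KO (medians -0.37 and -0.44). On that scale 3146 of the 12740 genes fell and 854 rose in control, and 4708 fell and 1191 rose in labelled KO. The largest falls in labelled KO were *Cad*, the first enzyme of pyrimidine synthesis (-2.35 ± 0.10 SE, adjusted p = 1.2e-08), *Bcat2*, the mitochondrial branched-chain transaminase (-1.58 ± 0.11 SE, adjusted p = 5.5e-07), and *Ass1*, the argininosuccinate synthase (-1.54 ± 0.15 SE, adjusted p = 7.6e-06). The largest interactions were those of *Ass1* (-1.32), *Cad* (-0.61) and *Aldh1l2*, the mitochondrial formyl-folate dehydrogenase (0.61), and those of *Cad* and *Aldh1l2* did not pass on the TPM scale or without the libraries high in *Gm23935*. *Ass1* had 1.96, 2.50 and 1.78 FPKM in the control libraries with vehicle, 1.89, 1.75 and 1.31 with hemin, 7.48, 7.12 and 5.56 in the labelled KO libraries with vehicle and 1.21, 2.17 and 1.65 with hemin, with the labelled KO vehicle libraries above the other 9.

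Of 24 other plasma membrane amino acid transporters, 14 were tested, and with hemin 8 rose and 3 fell in control, and 7 rose and 4 fell in labelled KO (medians 0.32 and 0.23, the latter -0.01 on the TPM scale). As shares 57.1% rose and 21.4% fell in control, beside 23.2% and 26.7% of all genes, and 50.0% rose and 28.6% fell in labelled KO, beside 29.9% and 30.4%. TPM gave 5 higher and 3 lower in control and 5 and 4 in labelled KO. Of the 12740 genes it gave 854 higher and 3146 lower in control and 1191 and 4708 in labelled KO. The cystine exchanger *Slc7a11* had 3.24, 2.82 and 2.97 FPKM in the control libraries with vehicle, 9.86, 8.65 and 11.8 with hemin, 0.624, 0.690 and 0.738 in the labelled KO libraries with vehicle and 28.0, 28.5 and 27.7 with hemin. *Slc3a2*, the heavy chain that *Slc7a11*, *Slc7a5* and others need at the membrane, had 33.7, 37.4 and 37.8 FPKM in the control libraries with vehicle, 58.2, 56.4 and 40.5 with hemin, 24.3, 23.7 and 25.4 in the labelled KO libraries with vehicle and 179, 160.1 and 177 with hemin. In labelled KO these rose by 4.11 (a log2 difference lowered by the added 1) and 2.76 (adjusted p = 1.2e-10 and 1.4e-08, ratios of mean FPKM 41.1 and 7.02), with interactions of 2.65 ± 0.13 (SE, adjusted p = 4.4e-07) and 2.28 ± 0.17 (SE, adjusted p = 6.1e-06), and *Slc6a14*, a broad carrier of neutral and cationic amino acids, fell (-1.76 ± 0.15 SE, adjusted p = 2.4e-06). *Slc3a1*, the heavy chain of the cystine and dibasic amino acid carrier, had an interaction of -1.60 ± 0.22 (SE, adjusted p = 0.00042). The heavy chain *Slc3a2* rose in both genotypes (0.48 in control, not passing on the TPM scale or without the libraries high in *Gm23935*) while its member partner *Slc7a5* fell in both.

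Of 20 factors and targets of the amino acid response other than members, 4 rose and 9 fell with hemin in control (median -0.10), and 11 rose and 2 fell in labelled KO (median 0.47), beside 23.2% and 26.7% of all genes in control and 29.9% and 30.4% in labelled KO. On the TPM scale 1 rose and 9 fell in control, and 5 rose and 3 fell in labelled KO (median 0.13). Of the 12740 genes 854 rose and 3146 fell on that scale in control, and 1191 rose and 4708 fell in labelled KO. Under vehicle 12 of 20 were lower in labelled KO and none was higher by limma (0 at an unadjusted p under 0.05 and 0 by limma-voom, median -0.56), beside 16.8% and 17.4% of all genes. For the interaction 10 were positive and 1 negative, beside 13.3% and 10.5% of all genes, with 4 positive on the TPM scale, where *Stc2*, the negative one, did not pass, nor did it without the libraries high in *Gm23935*, though it did on TPM once *Gm23935* had been dropped. On the TPM scale 312 of the 12740 genes had a positive interaction and 597 a negative one. *Atf4* itself had 132, 124 and 130.1 FPKM in the control libraries with vehicle, 156, 145 and 88.0 with hemin, 84.3, 86.2 and 89.7 in the labelled KO libraries with vehicle and 135, 119.5 and 130.5 with hemin. It rose with hemin in labelled KO (0.56 ± 0.17 SE, adjusted p = 0.014), gave -0.03 (95% interval -0.40 to 0.34, adjusted p = 0.9) in control, was lower in labelled KO under vehicle (-0.56 ± 0.17 SE, adjusted p = 0.024), and its interaction did not pass (0.59, 95% interval 0.06 to 1.11, adjusted p = 0.1). That rise did not pass on either TPM scale (adjusted p = 0.38 and 0.11), and the difference under vehicle did not on the TPM scale or without the libraries high in *Gm23935* (adjusted p = 0.16 and 0.06). The largest changes with hemin in labelled KO were those of *Chac1*, a glutathione-degrading enzyme (3.45 ± 0.19 SE, adjusted p = 9.4e-08), *Trib3*, a pseudokinase (1.94 ± 0.15 SE, adjusted p = 8.6e-07), and *Stc2*, a secreted glycoprotein, which fell (-1.81 ± 0.08 SE, adjusted p = 2.4e-08), and the largest interactions those of *Trib3* (3.25), *Chac1* (2.31) and the factor *Atf3* (1.96).

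Because several members are textbook targets of ATF4, the 250 bases before each start were searched for TGATGNAA, the core of the composite element bound by ATF4 with a C/EBP partner, on both strands. Promoter sequences were those of RefSeq on GRCm38.p6, in which 31 of the 40 members had an entry (*Cars*, *Hars*, *Lars*, *Nars*, *Rars*, *Vars*, *Wars*, *Slc7a5* and *Slc1a5* had none). The letters were found in 6 of the 31 members, or 6 of their 35 windows, and in 3.45% of the 32851 windows of all promoters of that length in the table. The 6 are shown as the 150 bases that end just before the start, 5′ to 3′ on the strand of the gene, in lower case with the letters that match in capitals (TTNCATCA where they read on the other strand), to set members that moved differently side by side.

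The windows lie at chr6:7693210-7693359 (minus strand, first matching base 23 bases before the start) for *Asns*, chr6:55037851-55038000 (plus strand, first matching base 30 bases before the start) for *Gars*, chr15:11399659-11399808 (minus strand, first matching base 15 bases before the start) for *Tars*, chr11:120643749-120643898 (minus strand, first matching base 103 bases before the start) for *Pycr1*, chr8:111033692-111033841 (plus strand, first matching base 112 bases before the start) for *Aars* and chr19:43524606-43524755 (minus strand, first matching base 102 bases before the start) for *Got1*.
Asns: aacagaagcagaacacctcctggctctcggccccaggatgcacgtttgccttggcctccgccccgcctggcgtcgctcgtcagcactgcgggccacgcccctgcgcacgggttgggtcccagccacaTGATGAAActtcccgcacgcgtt
Gars: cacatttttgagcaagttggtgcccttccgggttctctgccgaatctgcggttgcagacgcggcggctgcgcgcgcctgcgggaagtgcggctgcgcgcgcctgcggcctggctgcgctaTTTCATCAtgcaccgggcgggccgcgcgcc
Tars: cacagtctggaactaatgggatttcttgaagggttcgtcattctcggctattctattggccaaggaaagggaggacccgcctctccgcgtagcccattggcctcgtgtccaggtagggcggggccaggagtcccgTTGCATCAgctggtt
Pycr1: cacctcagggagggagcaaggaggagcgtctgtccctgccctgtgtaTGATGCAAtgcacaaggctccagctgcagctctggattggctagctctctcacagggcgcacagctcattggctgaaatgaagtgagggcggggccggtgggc
Aars: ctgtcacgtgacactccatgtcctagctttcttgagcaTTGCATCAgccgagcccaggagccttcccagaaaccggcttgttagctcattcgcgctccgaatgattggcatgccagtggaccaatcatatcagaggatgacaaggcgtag
Got1: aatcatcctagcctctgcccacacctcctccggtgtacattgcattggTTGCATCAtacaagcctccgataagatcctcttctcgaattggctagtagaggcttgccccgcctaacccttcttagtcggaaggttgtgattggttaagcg

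On the deposited scale the genes behind these windows did not share a direction. With hemin in labelled KO, *Asns*, *Gars*, *Tars* and *Pycr1* fell (-0.31, -0.60, -0.50 and -0.86), *Aars* rose (0.35) and *Got1* did not pass (0.16). The rise of *Aars*, the only one, did not pass on either TPM scale. That fall of *Asns* ended without any single labelled KO library, and *Pycr1* met the filter only through its vehicle libraries. In *Asns*, *Gars* and *Tars* the letters lay nearest to the start, and under vehicle these 3 and *Aars* were lower in labelled KO (-0.47, -0.45, -0.19 and -0.26), while *Pycr1* and *Got1* did not pass (0.12 and -0.12). None of these passes under vehicle held on the TPM scale. A match describes letters in a window and is not a measured site.

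Over the 5 comparisons the members passed the test 112 times, and 16 of these ended when a single library was left out. With hemin in control this was *Lars* without control vehicle 3 or control hemin 1 (adjusted p = 0.059 to 0.063), and with hemin in labelled KO it was *Asns* without control vehicle 3, labelled KO vehicle 1, labelled KO vehicle 2, labelled KO vehicle 3, labelled KO hemin 1, labelled KO hemin 2 or labelled KO hemin 3 (adjusted p = 0.056 to 0.12). For the interaction it was *Got1* without control vehicle 2, control vehicle 3, control hemin 1, control hemin 3, labelled KO vehicle 1, labelled KO vehicle 2, labelled KO vehicle 3, labelled KO hemin 1 or labelled KO hemin 3 (adjusted p = 0.0508 to 0.12). Under vehicle, labelled KO against control, it was *Hars* without control vehicle 1, control vehicle 2, control vehicle 3, control hemin 2, labelled KO vehicle 1, labelled KO vehicle 2, labelled KO vehicle 3, labelled KO hemin 1 or labelled KO hemin 3 (adjusted p = 0.0501 to 0.13), *Cars* without control vehicle 1, control vehicle 2, control vehicle 3, labelled KO vehicle 1, labelled KO vehicle 2 or labelled KO vehicle 3 (adjusted p = 0.058 to 0.1) and *Slc1a4* without control vehicle 2 or labelled KO vehicle 3 (adjusted p = 0.0529 to 0.062). Under vehicle it was also *Tars* without control vehicle 1, labelled KO vehicle 2 or labelled KO vehicle 3 (adjusted p = 0.064 to 0.073) and *Aars* without control vehicle 3 or labelled KO vehicle 1 (adjusted p = 0.0547 to 0.057). Under hemin it was *Hars* without labelled KO hemin 1 or labelled KO hemin 3 (adjusted p = 0.0545 to 0.058), *Shmt1* without control hemin 1, labelled KO hemin 2 or labelled KO hemin 3 (adjusted p = 0.064 to 0.088) and *Psat1* without labelled KO hemin 1 (adjusted p = 0.059). It was further *Got1* without control vehicle 2, control hemin 1, control hemin 3, labelled KO vehicle 1, labelled KO vehicle 2, labelled KO hemin 1 or labelled KO hemin 3 (adjusted p = 0.053 to 0.15), *Slc6a9* without labelled KO hemin 3 (adjusted p = 0.0528) and *Qars* without control hemin 2 or labelled KO hemin 1 (adjusted p = 0.059 to 0.12), and last *Iars* without labelled KO hemin 1 or labelled KO hemin 3 (adjusted p = 0.0522 to 0.11) and *Slc7a5* without control vehicle 2, control hemin 1, control hemin 2, labelled KO vehicle 1, labelled KO vehicle 2, labelled KO vehicle 3, labelled KO hemin 1, labelled KO hemin 2 or labelled KO hemin 3 (adjusted p = 0.059 to 0.14). The other 96 passed without each of the 12 libraries in turn.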

How the data were processed

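Libraries were made from poly-A RNA, 12 in number over 4 groups, with group, genotype and replicate taken from the sample labels. The authors deposited FPKM for 54532 genes with gene coordinates and a column of gene lengths, and the submitters' processing notes name fastp, HISAT2 2.0.5, featureCounts 1.5.0-p3 and the build mm10 (GRCm38). Within each library FPKM times length were taken as multiples of a single step, which gave the fragments per library. FPKM carry differences in library composition, and median-of-ratios factors of the deposited values were 1 in all 12 libraries.

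limma 3.58.1 in R 4.3.3 was fitted to log2(FPKM + 1) of the 12740 genes that had 3 or more libraries at FPKM 1 or higher, with 1 mean per group, no block and empirical Bayes with a trend. P-values were adjusted by Benjamini-Hochberg over all genes tested, 0.05 was the threshold, and a stricter count asked for an absolute log2 fold change above 1. The same code was tested on simulated data. Tables and figures were made in Python 3.11.15 with pandas 2.3.3 and matplotlib 3.10.9.

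Members and lists of other genes were chosen with earlier results of these data known. Any member could be named. Values in every library are given for *Hmox1* and for the 3 members of each role with the largest absolute difference, among those past the threshold, in each comparison. Outside this rule they are also given for *Atf4*, *Ass1*, *Slc7a11*, *Slc3a2*, *Glul*, *Aldh1l1* and *Lars2*, and for *Aars* in labelled KO. From lists of other genes the 3 largest in hemin against vehicle in labelled KO and in the interaction are named, with *Atf4*, and promoters are shown for members holding TGATGNAA. Where *Ddit3* and *Gcat* had a second row at 0, the row with fragments was used. Alternatives were a pseudocount of 0.1, no filter, a mean FPKM of at least 5, TPM with and without *Gm23935* in the sum, median-of-ratios scaling, the replicate block, no trend, only the groups compared, limma-voom on recovered fragments and each library left out. Limma-voom kept the deposited scaling, and median-of-ratios scaling, with factors of 1, left the main results as they were. Leaving out together the 3 libraries with over 15% of the FPKM sum on *Gm23935* was added after seeing the data.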

Additional observations from a re-analysis of the deposited data

Results flagged for a closer look

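The results here are members and named genes whose log2 change with hemin differed between labelled KO and control by the interaction test. Among members that fell with hemin in labelled KO more than in control, the interaction was -1.23 for *Phgdh*, -1.16 for *Aldh18a1*, -1.01 for *Slc1a5*, -0.58 for *Gpt2* and -0.56 for *Shmt2*. For *Wars*, with opposite changes in the genotypes, it was -0.80. The difference was positive for *Slc6a9* (1.20), *Slc38a2* (0.68), *Got1* (0.39) and *Slc1a4* (0.35). That of *Got1* did not pass with 16 of 22 alternatives. Those of *Gpt2*, *Shmt2*, *Slc38a2* and *Slc1a4* did not pass on the TPM scale, nor did the last 3 without the libraries high in *Gm23935*.

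Among the other genes, it was 3.25 for *Trib3*, 2.65 for *Slc7a11*, 2.31 for *Chac1*, 2.28 for *Slc3a2*, 1.96 for *Atf3*, 0.61 for *Aldh1l2* and 0.52 for *Eef1e1*. It was negative for *Slc3a1* (-1.60), *Ass1* (-1.32), *Vars2* (-0.61), *Cad* (-0.61), *Stc2* (-0.51), *Ears2* (-0.46) and *Tars2* (-0.41). *Hmox1*, lower in labelled KO under vehicle and higher under hemin, had 2.81, and gene-level values cannot show which of its exons were transcribed. Those of *Aldh1l2*, *Eef1e1*, *Vars2*, *Cad*, *Stc2*, *Ears2* and *Tars2* did not pass on the TPM scale.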

How the results depend on the processing

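Of the 112 passes of single members, none changed direction under any alternative. Median-of-ratios scaling could not change any, since its factors were 1 in all 12 libraries. TPM changed most: 47 of 112 no longer passed, against 8 with *Gm23935* left out of the sum, 16 without the 3 libraries high in *Gm23935*, 12 of 102 with only the groups compared in the fit, and 1 with limma-voom. On the TPM scale 1 member rose with hemin in control and 2 in labelled KO, 1 was higher and 3 lower in labelled KO under vehicle, 0 higher and 6 lower under hemin, and 1 had a positive interaction. For the 0 higher under hemin on TPM, an unadjusted p under 0.05 gave 2. Limma-voom on fragments, which kept the deposited scaling and is no test on the TPM scale, gave 6, as did the main fit. Of the 12740 genes 854 and 1191 rose with hemin on the TPM scale in control and labelled KO. There 1472 were higher and 797 lower under vehicle, 1151 and 958 under hemin, and 312 had a positive interaction. With *Gm23935* left out of the TPM sum 2 interactions were positive and 13 negative, where 1164 of the 12740 genes were positive and 1837 negative. Under hemin 1 member was higher in labelled KO with only the groups compared and 3 without the 3 libraries high in *Gm23935*, without which 1 interaction was positive. The cause of these shifts was not tested. Leaving out each library in turn gave 2 to 4 members higher and 21 to 27 lower with hemin in control, 4 to 6 and 26 to 27 in labelled KO, 5 to 9 and 12 to 16 between genotypes under vehicle, 2 to 7 and 16 to 21 under hemin, and 3 to 4 and 6 to 8 for the interaction. With the replicate block the counts were 2 higher and 22 lower, 4 and 26, 5 and 15, 5 and 19, and 3 and 6 in the same order. Shares of all genes with a library left out or with the block are not given, so these counts show only how the members moved. Replicate numbers did not mark pairs: after removing group means, libraries of the same number correlated over genes at a mean of -0.042 (18 pairs, -0.327 to 0.179) and other libraries at 0.023 (36 pairs, -0.395 to 0.344). With 3 libraries per group, no exact permutation test of 3 against 3 can go below p = 0.1, so calls rest on the spread limma shares over genes.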

Other observations

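In the lists of other genes, some single genes outside the naming rule stood out after their values were seen. *Glul*, the glutamine synthetase, had 33.1, 38.4 and 35.6 FPKM in the control libraries with vehicle, 63.5, 69.5 and 65.1 with hemin, 114, 119 and 118 in the labelled KO libraries with vehicle and 151, 134 and 149 with hemin. It rose with hemin in both genotypes (0.87 ± 0.07 SE, adjusted p = 2.7e-06 in control and 0.30 ± 0.07 SE, adjusted p = 0.0034 in labelled KO) and was higher in labelled KO under vehicle (1.69 ± 0.07 SE, adjusted p = 1.6e-08) and hemin (1.12 ± 0.07 SE, adjusted p = 4.6e-07), with groups that did not overlap. *Aldh1l1*, the cytosolic dehydrogenase that removes formyl groups from folate, had 1.40, 1.57 and 1.60 FPKM in the control libraries with vehicle, 1.009, 1.18 and 0.739 with hemin, 23.9, 26.2 and 24.8 in the labelled KO libraries with vehicle and 17.5, 16.5 and 17.3 with hemin. It was far higher in labelled KO under vehicle (3.37 ± 0.08 SE, adjusted p = 1.9e-10) and hemin (3.20 ± 0.08 SE, adjusted p = 3.1e-10), the largest difference between genotypes in its list. *Srr*, the serine racemase, rose in both genotypes (1.29 ± 0.13 SE, adjusted p = 1.7e-05 and 1.51 ± 0.13 SE, adjusted p = 2.9e-06), opposite to the falls of the serine-splitting members *Shmt1* and *Shmt2*.

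*Lars2*, the mitochondrial leucyl-tRNA synthetase, had 102, 8.89 and 8.77 FPKM in the control libraries with vehicle, 226, 13.7 and 91.5 with hemin, 6.92, 6.80 and 6.34 in the labelled KO libraries with vehicle and 9.38, 122 and 8.77 with hemin, and no comparison of it passed. *Gm23935* was also high in 3 of the 4 libraries in which *Lars2* was above 90 FPKM, while in the remaining one, control hemin replicate 3, it held 2.81% of the FPKM sum. Whether these signals share a source was not tested.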
